A study of Haberlea rhodopensis with 10 samples.

Results

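Sucrose synthase (SUS) is a cytosolic glycosyltransferase that splits sucrose with UDP into UDP-glucose and fructose, in a reaction that can also run towards sucrose. Leaves otherwise make sucrose with sucrose-phosphate synthase and sucrose-phosphatase, and invertases split it irreversibly into glucose and fructose. The UDP-glucose from SUS can feed cellulose and callose synthesis or pass through UDP-glucose pyrophosphorylase and ADP-glucose pyrophosphorylase towards starch. In Arabidopsis the enzyme is encoded by a small gene family, in which SUS1 and SUS4 are known for their response to low oxygen, SUS2 for developing seeds, and SUS5 and SUS6 for sieve elements. Sucrose is known to build up in leaves of many resurrection plants as they dry.

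The sucrose synthases of *Haberlea rhodopensis* were followed by RNA-seq of leaves at 5 stages with 2 libraries each. The members were the unigenes, that is, assembled transcripts, that had an FPKM (fragments per kilobase of transcript, scaled to the library total) of at least 1 in at least 2 libraries and whose best Swiss-Prot hit is called sucrose synthase. Of 142473 unigenes with values, 26 carried the name and 19 of them passed the FPKM filter, which 85267 unigenes passed in all. The stages were regularly watered plants (F), plants after slight dehydration (D75), plants after severe dehydration (D20), fully dried plants (DT) and rehydrated plants (R). Relative water content (RWC) is given in the labels as about 100% for F and R, 75% for D75, 20% for D20 and under 5% for DT, and in the treatment protocol as 90% for F and R and 6% for DT. All plants came from in vitro propagation, were grown in pots and were otherwise handled alike. DT plants had dried over 8 days, and R plants were watered again after 10 days in the dry state and sampled after a week. At least 4 plants were used per sampling point, but it is not stated which plants went into which library, so the p-values measure the spread between libraries, which may in part be technical.

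Library depth ran from 4522835 fragments in F replicate 2 to 12734565, and the replicates of D75 were the least alike (r = 0.773 over log2 values across tested unigenes, against 0.901 to 0.964 at the other stages). Levels below are FPKM divided by the TMM factor of the library (scaled FPKM), as mean ± SD with n = 2. Differences are log2 fold changes with their SE from edgeR's quasi-likelihood test on the fragment counts, called at a Benjamini-Hochberg adjusted p below 0.05 over all tested unigenes. Raw reads were slightly shorter in the D75 and D20 libraries than in those of F, DT and R, and in comparisons between these sets the stage and the read length cannot be told apart. D20 against D75, DT against F, R against F and R against DT stay within a set.

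The label was first checked against the other annotations of the members. Of the 19 members, 14 carried the KEGG orthology number of sucrose synthase, with Swiss-Prot alignment scores of 90.5 or more. The other 5 matched sucrose synthase with scores of only 49.3 to 59.3 and carried KEGG numbers of other glycosyltransferases. CL11013.Contig1 was assigned there to sulfoquinovosyltransferase, which builds a chloroplast membrane lipid. CL15522.Contig1, CL15522.Contig2, Unigene523 and Unigene525 were assigned to the mannosyltransferase ALG2 of protein glycosylation, which was also their best Nr hit. The annotation of these 5 members thus goes against the label, and they are described apart from the other 14.

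Most of the 14 members were fragments. CL9818.Contig1 (3001 nt), CL6367.Contig2 (2812 nt) and Unigene32896 (1250 nt) were longer than 1000 nt, and the other 11 were shorter than 600 nt and had at most 64 fragments in any library. Short unigenes may be pieces of the same transcript as a longer unigene, and contigs of the same assembly cluster (names beginning with CL) may share reads, so counts of members are not counts of genes.

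**Figure D1:**
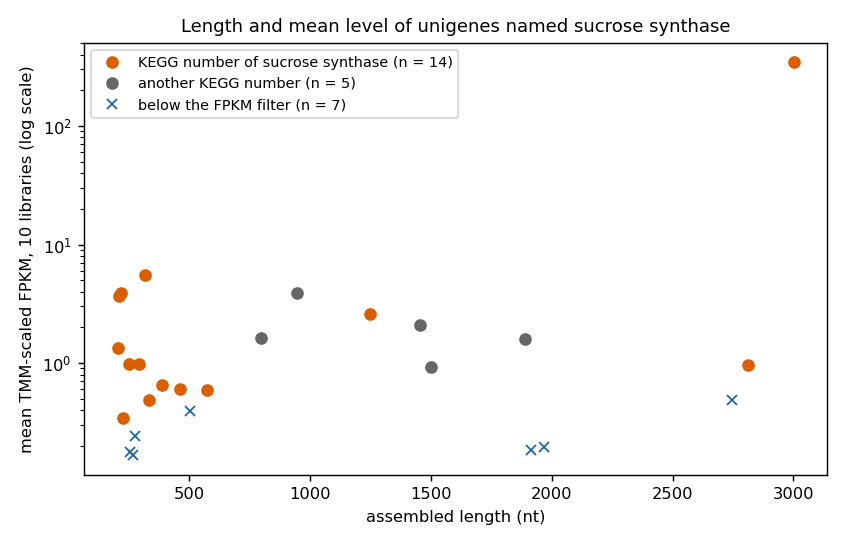
Mean scaled FPKM over 10 libraries (log scale) against assembled length in nt for the 26 unigenes named sucrose synthase. Orange points are the 14 members with the KEGG number of sucrose synthase, grey points the 5 with another KEGG number, and crosses the 7 unigenes under the FPKM filter. CL9818.Contig1, at 3001 nt and a mean of 344, stands far above all others.

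A single transcript, CL9818.Contig1, held most of the sucrose synthase signal. Its best hits were SUS2 of pea in Swiss-Prot and sucrose synthase 2 of sesame among nucleotide sequences. It had 97.8% of the fragments of all 19 members over the 10 libraries, and 62.2% to 95.5% of their summed scaled FPKM in a library. Its mean of 344 scaled FPKM was 62-fold that of the next member, Unigene39171 (5.55). Among all tested unigenes it ranked 264th by mean level, and its rank moved from 1057th in F to 119th at D20.

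The level of CL9818.Contig1 was low in watered leaves, peaked at severe dehydration and was intermediate in dry and rehydrated leaves. Scaled FPKM were 96.1 and 40.9 in F, 93.6 and 150.0 in D75, 1168.5 and 758.0 in D20, 269 and 472 in DT, and 143 and 253 at R. Both D20 libraries lay above every other library, and both DT libraries lay above both R libraries, whereas F and D75 overlapped. Within a stage the replicates differed by 1.54-fold at D20 to 2.35-fold in F.

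The transcript rose by 3.81 ± 0.64 on the log2 scale from F to D20, or 14-fold (adjusted p = 0.00097). Already at D75 its mean was 122 ± 39.9 against 68.5 ± 39.1 in F, but this difference of 0.84 ± 0.58 did not pass the test (adjusted p = 0.5). The step from D75 to D20, within a set of equal read length, was an increase of 2.96 ± 0.62 (adjusted p = 0.005).

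At DT it was still higher than in F, by 2.43 ± 0.60 (adjusted p = 0.013), with a mean of 370 ± 144. This call was lost without F replicate 2 (log2 1.95, adjusted p = 0.0878), the shallowest library, and without DT replicate 2 (1.96, adjusted p = 0.0913). The mean at R was 198 ± 77.7, and neither R against F (1.53 ± 0.59, adjusted p = 0.51) nor R against DT (−0.90 ± 0.58, adjusted p = 0.31) passed.

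By mean level the order of stages was D20, DT, R, D75 and F. Of the neighbours in it, D20 and DT (log2 −1.38 ± 0.58, adjusted p = 0.34) and DT and R passed no test, although their libraries did not overlap. D75 and F, whose libraries overlapped, passed no test either, and R and D75, which also overlapped, were not compared by a test. The mean of the dry stages D20 and DT exceeded that of the watered stages F and R by 2.35 ± 0.43 (adjusted p = 0.00096). The calls of D20 against F, of D20 against D75 and of dry against watered stages held under every alternative fit and with each of the 10 libraries left out in turn, apart from D20 against D75 at an adjusted p of at most 0.001, the threshold of the study.

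**Figure D2:**
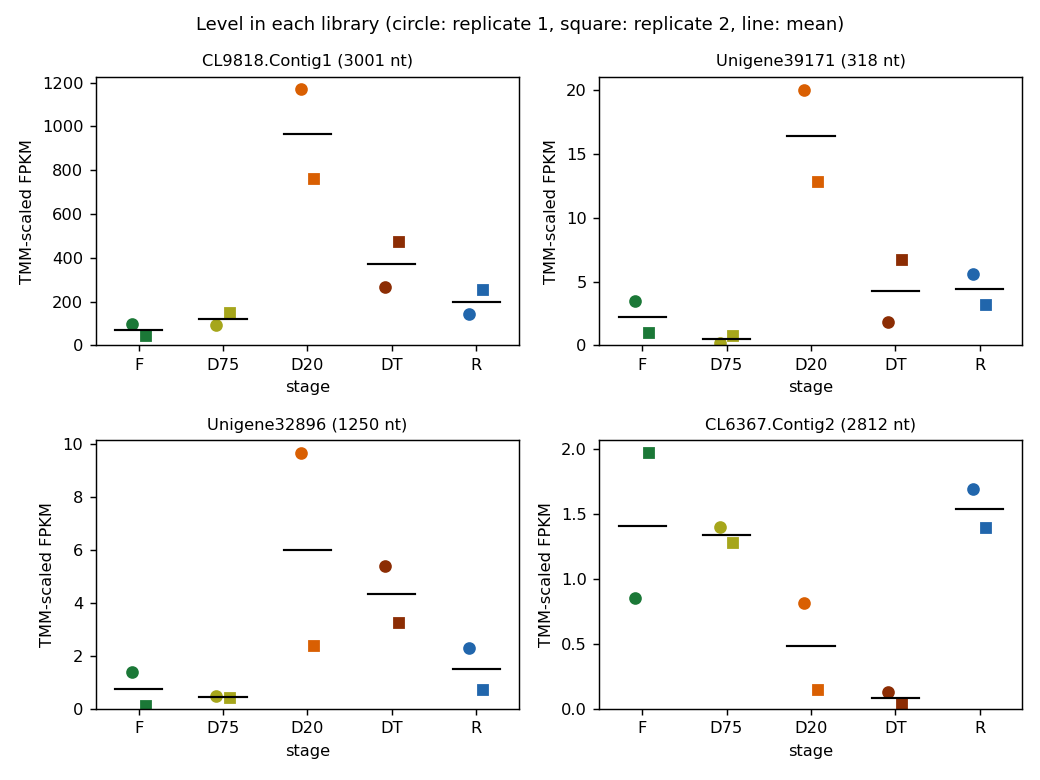
Scaled FPKM in each library for CL9818.Contig1, Unigene39171, Unigene32896 and CL6367.Contig2, by stage from F to R. Circles are replicate 1, squares replicate 2 and lines the mean of both. CL9818.Contig1 reaches 1168.5 and 758.0 in D20, while CL6367.Contig2 falls to 0.126 and 0.0398 at DT.

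Since leaves hold several cell types, marker lists were read beside these values. Fewer cells of a type and less RNA per cell cannot be told apart in such bulk samples. Of the phloem list, 5 of 14 named unigenes were tested, none of them named after the transporter SUC2, and their summed scaled FPKM was 21.1 to 49.6 in F, 47.3 to 87.0 in D75, 75.2 to 107 in D20, 109 to 139.9 at DT and 80.6 to 86.2 at R. The phloem sum was highest at DT, with D20 close below. Phloem protein 2-like A1 (Unigene32930) made up most of this sum, and the sieve element occlusion unigene had no fragment in D75, D20 or DT. Of the 5, 1 rose at D20 and in DT, from which nothing is read. Of all tested unigenes, 14% were higher at D20 and 10.1% at DT.

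The sums of the other marker lists were lower in D20 than in F. The 49 tested mesophyll unigenes (small RuBisCO subunits and chlorophyll-binding proteins) summed to 31323 to 33043 in F, 14241 to 25585 in D75, 573 to 937 in D20, 3166 to 3514 at DT and 30754 to 34812 at R. Of these, 40 fell and none rose in D20, while 14% of all tested unigenes rose and 17.8% fell. Of 16 xylem unigenes 10 fell and none rose, of 21 guard cell unigenes 17 fell and 1 rose, and of 68 epidermis unigenes 35 fell and 4 rose. Their sums at D20 were 3.72 to 4.25 for xylem against 35.9 to 58.6 in F, 6.45 to 7.45 for guard cells against 113 to 126, and 519 to 934 for epidermis against 1881.5 to 2848. At DT these sums were 2.82 to 3.38 for xylem, 7.72 to 12.2 for guard cells and 581 to 2567 for epidermis. At R the epidermis sum was 4288 to 5402, above F. Of all named markers, tested or not, none was at 0 in all libraries. The part of cell composition in the sucrose synthase values was not tested.

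Unigene39171, a 318 nt fragment with SUS2 of Arabidopsis as its best Swiss-Prot hit, shared the D20 peak. Its scaled FPKM were 3.44 and 0.942 in F, 0.206 and 0.771 in D75, 20.0 and 12.8 in D20, 1.86 and 6.69 in DT, and 5.60 and 3.17 at R. The D20 libraries were again the highest, and those of F, DT and R overlapped. It rose by 2.82 ± 0.78 against F (adjusted p = 0.016) and by 5.00 ± 0.89 against D75 (adjusted p = 0.0021), and the former call was lost without F replicate 2 (adjusted p = 0.121) or D20 replicate 1 (adjusted p = 0.103). Its best nucleotide hit was the same sesame sucrose synthase 2 as that of CL9818.Contig1.

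The other 5 short unigenes with a sucrose synthase 2 as best nucleotide hit went different ways from D75 to D20, with 2 called higher and 3 that passed no test and had lower means. CL9818.Contig2 (221 nt) had scaled FPKM of 1.48 and 2.03 in F, 0 and 1.11 in D75, 11.3 and 3.23 in D20, 2.68 and 6.59 in DT, and 6.99 and 3.55 at R. Unigene29189 (210 nt) had 2.60 and 4.28 in F, 0 and 0.389 in D75, 6.64 and 2.91 in D20, 3.38 and 8.54 in DT, and 4.53 and 3.20 at R. Both were lowest in D75, and Unigene29189 overlapped among the other stages.

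Their increases from D75 to D20 were 3.66 ± 1.12 for CL9818.Contig2 (adjusted p = 0.031) and 4.33 ± 1.15 for Unigene29189 (adjusted p = 0.017). Without D75 replicate 1 these became 2.58 (adjusted p = 0.0853) and 3.35 (adjusted p = 0.0614), and without D20 replicate 1 they became 2.50 (adjusted p = 0.253) and 3.63 (adjusted p = 0.116). The other 3 had few fragments, 10 and 3 in D75 against 3 and 2 in D20 for CL9818.Contig3, 6 and 5 against 2 and 0 for Unigene35275, and 7 and 3 against 2 and 3 for Unigene38888. Together, the 6 unigenes other than CL9818.Contig1 with this hit had a scaled FPKM of 8.81 ± 0.108 in F, 4.35 ± 0.422 in D75, 29.9 ± 13.9 in D20, 15.7 ± 10.6 at DT and 15.3 ± 6.15 at R, of which Unigene39171 made up the larger part at D20.

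Unigene15313 (207 nt), named after a beet sucrose synthase, had no fragment in D75, 8 and 4 in D20, 3 and 0 in F, 0 and 1 in DT, and 3 and 7 at R. Against a floor of 3 fragments per library at D75 its D20 level was at least 2.73-fold higher, a bound that was not tested. It was called on the fitted log2 change of 5.58 ± 1.80 (adjusted p = 0.042), which depends on the prior count. With counts this low the D20 and R libraries overlapped, and the call was lost with any single library of D75 or D20 left out (adjusted p = 0.061 to 0.166) and also without DT replicate 2, R replicate 1 or R replicate 2 (adjusted p = 0.0502 to 0.07).

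A sesame gene called sucrose synthase, without a number, was the best nucleotide hit of several unigenes. Another sesame gene of that name was matched by Unigene32895 alone and is left aside here. The unigenes matching the former split into opposite patterns. CL6367.Contig2, with potato sucrose synthase as its Swiss-Prot hit, is the longest of them. Its fragment counts were 22 and 37 in F, 60 and 44 in D75, 23 and 4 in D20, 3 and 1 in DT, and 40 and 35 at R. In scaled FPKM these were 0.855 and 1.97, 1.40 and 1.28, 0.815 and 0.145, 0.126 and 0.0398, and 1.69 and 1.39. Both DT libraries were below all others, D20 lay between them and the libraries of F, D75 and R, which overlapped.

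CL6367.Contig2 fell by 4.03 ± 0.88 on the log2 scale from F to DT (adjusted p = 0.007) and rose by 4.16 ± 0.88 from DT to R (adjusted p = 0.0084). At D20 the difference from F was −1.54 ± 0.71 (adjusted p = 0.11), and R and F differed by 0.13 ± 0.66 (adjusted p = 0.99). Dry against watered stages gave −2.85 ± 0.57 (adjusted p = 0.0018), in the opposite direction to CL9818.Contig1. The loss at DT missed the threshold without F replicate 2 (adjusted p = 0.06) or DT replicate 2 (adjusted p = 0.0755), and the gain at R without DT replicate 2 (adjusted p = 0.0957) or R replicate 1 (adjusted p = 0.0504).

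CL6367.Contig3 (2747 nt) did not pass the FPKM filter but had the same best hits and a similar course. Its fragments numbered 19 and 23 in F, 21 and 15 in D75, 14 and 0 in D20, 1 and 0 in DT, and 9 and 23 at R. In a fit with no filter over 141376 unigenes it fell by 5.36 ± 1.18 from F to DT (adjusted p = 6e-04) and rose by 4.77 ± 1.2 from DT to R (adjusted p = 0.004). Reads of CL6367.Contig2 and CL6367.Contig3 may be split between them, and together they had a scaled FPKM of 2.42 ± 1.14 in F, 1.81 ± 0.122 in D75, 0.733 ± 0.832 in D20, 0.105 ± 0.0915 at DT and 2.21 ± 0.178 at R.

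Unigene32896 went the other way. Scaled FPKM were 1.40 and 0.120 in F, 0.471 and 0.392 in D75, 9.64 and 2.36 in D20, 5.39 and 3.23 in DT, and 2.28 and 0.717 at R. Every D20 and DT library lay above every library of F, D75 and R. It rose by 2.88 ± 0.89 from F to D20 (adjusted p = 0.027), by 3.73 ± 0.91 from D75 to D20 (adjusted p = 0.011) and by 2.20 ± 0.61 from watered to dry stages (adjusted p = 0.012).

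At DT the difference of Unigene32896 from F was 2.40 ± 0.89 (adjusted p = 0.07). With limma on log2(FPKM + 1) and log2(FPKM + 0.1) its D20 calls were lost against F (adjusted p = 0.0615 and 0.063) and against D75 (0.0582 and 0.0652). The latter was also lost by edgeR with only the D75 and D20 libraries fitted (adjusted p = 0.0612). Without D20 replicate 1 its D20 values were 1.55 against F (adjusted p = 0.293) and 2.39 against D75 (adjusted p = 0.141), and its dry against watered value was 1.53 (adjusted p = 0.0849). The D20 call against F was also lost without F replicate 2 (2.08, adjusted p = 0.16), and the dry against watered call without R replicate 2 (1.85, adjusted p = 0.0598).

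Unigene32894 (293 nt), also potato-like, had 2 and 0 fragments in F, none in D75, 13 and 3 in D20, 6 and 3 in DT, and none at R. Its D20 level was at least 3.63-fold above the floor at D75, again a bound without a test. It was called higher in D20 than in D75 on the fitted log2 change of 5.99 ± 1.81 (adjusted p = 0.035), which depends on the prior count. It was also called higher in dry than in watered stages (adjusted p = 0.029). It reached an FPKM of 1 only in D20 and DT libraries, so it passed the filter only through the stages where it was high. Its calls against D75 and the watered stages are thus descriptions and give no support. CL6367.Contig1, summed below, also reached this level only at D20 and DT. The first call was lost without D75 replicate 1, either D20 library or either DT library (adjusted p = 0.0527 to 0.213), the other without F replicate 2, D20 replicate 1, DT replicate 1 or either R library (adjusted p = 0.0726 to 0.119). Unigene32896, Unigene32894, CL6367.Contig1 and the unfiltered Unigene32893 together had a scaled FPKM of 1.26 ± 1.25 in F, 0.559 ± 0.0359 in D75, 10.1 ± 9.15 in D20, 8.08 ± 3.04 at DT and 1.81 ± 1.54 at R. Within a stage, the long contigs CL6367.Contig2 and CL6367.Contig3 held 101 of 121 fragments of this sesame match in F, 140 of 157 in D75, 41 of 221 in D20, 5 of 123 at DT and 107 of 142 at R.

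The unigenes of the SUS5 to SUS7 type were rare and at or near 0 in dry leaves. Of 6 such unigenes only Unigene12562 passed the filter, with 3 fragments in F replicate 2, 5 in D75 replicate 1 and none elsewhere. CL4711.Contig1 and CL4711.Contig2, with Arabidopsis SUS5 and SUS6 as best hits, summed to 10 and 20 fragments in F, 9 and 8 in D75, 0 and 2 in D20, 0 and 1 in DT, and 7 and 8 at R. No library of D20 or DT reached the lowest library of the other stages.

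In the fit with no filter, CL4711.Contig1 fell by 4.54 ± 1.28 between watered and dry stages (adjusted p = 0.0048) and CL4711.Contig2 fell by 4.18 ± 1.24 (adjusted p = 0.0077), fitted values that depend on the prior count where a stage is at 0. Unigene54343, a SUS5 match, had 28 fragments in D75 replicate 1 and at most 1 in any other library. The remaining unfiltered unigenes, Unigene31006 and Unigene65895, had at most 3 fragments in a library.

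Counting members over the comparisons with F gave few calls. At D75 none of the 19 was called higher or lower, while 0.671% of all tested unigenes were higher and 1.16% lower, and 4 of the 19 had an unadjusted p below 0.05 by edgeR. DESeq2 called 1 lower there. At D20, 3 rose and none fell, against 14% of all tested unigenes higher and 17.8% lower. At DT, 1 rose and 1 fell, against 10.1% higher and 12.4% lower. At R none was called by edgeR or DESeq2 (3 at an unadjusted p below 0.05), against 0.0293% higher and 0.00938% lower.

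The step from D75 to D20 gave the most calls. Of the 19 members 8 rose, among them CL15522.Contig1 of the ALG2 matches, and none fell, against 10.7% and 14.5% of all tested unigenes, but the count was 3 without D75 replicate 1 and 3 without D20 replicate 1, and 2 when only the D75 and D20 libraries were fitted. From D20 to DT no member was called (3 at an unadjusted p below 0.05, none by DESeq2, with a background of 0.22% higher and 0.108% lower), and from DT to R only CL6367.Contig2 rose and none fell (background 9.3% and 5.96%). Between dry and watered stages 4 members were higher and 2 lower, against 18% and 23.1%, with CL15522.Contig1 among the former and CL11013.Contig1 among the latter. Unigene32894, which passed the filter through D20 and DT alone, is counted as higher here, from D75 to D20 and in the matching cluster counts.

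The median log2 change of the 19 members against F was −0.85 at D75, where 5 of the 19 values were above 0 and the median of all tested unigenes was 0.05. It was 0.71 at D20 and 0.80 at DT against F, and 1.99 from D75 to D20. For the latter 3 the medians of all tested unigenes were −0.33, −0.22 and −0.38, so the zero of the scale is itself shifted, and with median-of-ratios scaling these became −0.41, −0.32 and −0.40. Restricted to the 14 members with the KEGG number, the medians were −0.14 at D75, 1.84 at D20 and 0.85 at DT against F, and 3.31 from D75 to D20. Some fitted values in these medians come from stages with 0 fragments and depend on the prior count.

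**Figure D3:**
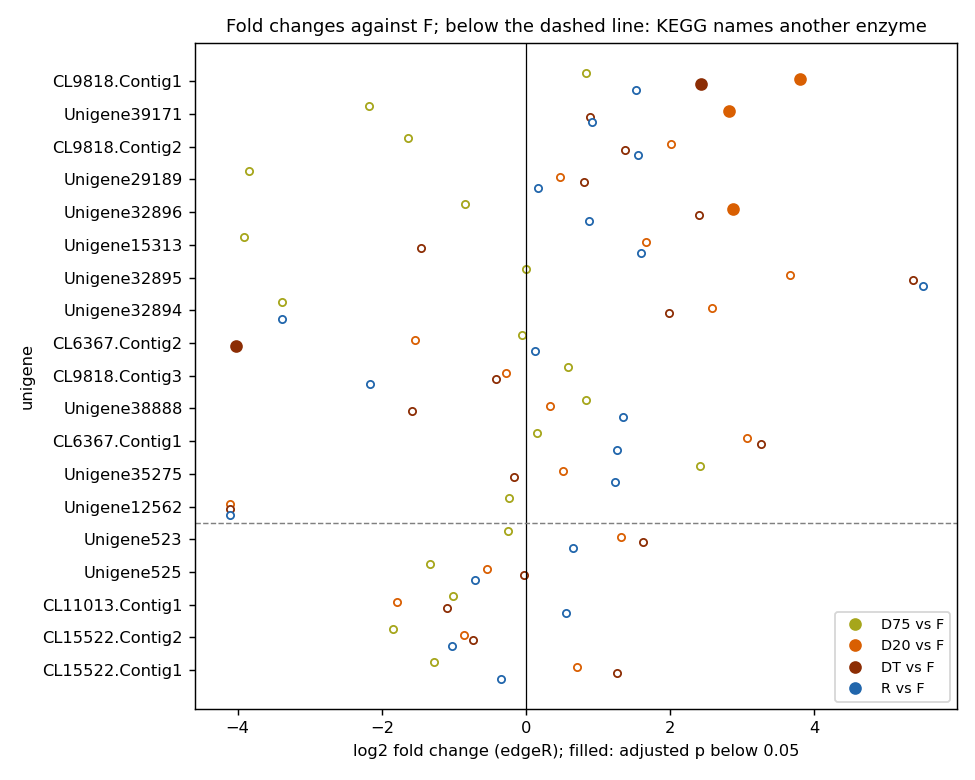
Log2 fold changes against F in D75, D20, DT and R for the 19 members, ordered by mean level, with the 5 members of another KEGG number under the dashed line. Filled points have an adjusted p below 0.05, namely CL9818.Contig1 at D20 and DT, Unigene39171 and Unigene32896 in D20, and CL6367.Contig2 at DT, the only filled point below 0. Values of stages with 0 fragments depend on the prior count.

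Summing the counts of all contigs of an assembly cluster removed the question of how reads were shared within it. The 19 members fell into 15 clusters or single unigenes. The CL9818 sum rose by 3.91 ± 0.62 at D20 (adjusted p = 0.00051) and by 2.52 ± 0.59 at DT (adjusted p = 0.0085) against F. The CL6367 sum fell by 2.57 ± 0.79 at DT against F (adjusted p = 0.034) and rose from DT to R by 2.52 ± 0.78 (adjusted p = 0.047), smaller values than those of CL6367.Contig2 alone. CL6367.Contig1, in the same cluster, had 0 and 1 fragments in F, 12 and 1 in D20, and 5 and 8 at DT. Of the 15, 3 were called higher and 1 lower at D20 (background 12.9% and 15.8% of 55841 clusters), and 1 higher and 2 lower at DT (9.71% and 11.3%). At D75 against F none was higher and 1 lower (0.723% and 1.24%), from D75 to D20 7 rose and none fell (9.59% and 13%), from DT to R 2 rose and none fell (8.92% and 5.9%), and between watered and dry stages 4 rose and 2 fell (17.2% and 21.4%). The CL11013 cluster, set apart by its KEGG number, was the lower call at D75 and at D20, 1 of the 2 lower calls at DT and in dry stages, and 1 of the 2 higher calls from DT to R. CL15522, also set apart, was 1 of the 7 that rose from D75 to D20 and 1 of the 4 in dry stages. With either DT or either R library left out no cluster was called from DT to R, so the CL6367 gain was lost in each case, and without either F library 1 was called.

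The 5 members of other KEGG assignment together had a scaled FPKM of 9.67 and 11.8 in F, 3.0 and 7.2 in D75, 12.0 and 9.63 in D20, 16.0 and 12.0 in DT, and 11.6 and 9.06 at R. None of them was called against F. CL11013.Contig1, the sulfoquinovosyltransferase match, had 1.09 and 3.37 in F, 0.736 and 1.43 in D75, 0.871 and 0.382 in D20, 1.63 and 0.420 in DT, and 3.56 and 2.94 at R, and fell by 1.72 ± 0.58 between watered and dry stages (adjusted p = 0.031). This call was lost without F replicate 2, D20 replicate 2, DT replicate 2 or either R library (adjusted p = 0.0554 to 0.164). The sum over the whole CL11013 cluster, in which most of the signal is outside the member, fell by 2.69 ± 0.41 at D20 against F (adjusted p = 4e-04).

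CL15522.Contig1, an ALG2 match, had 0.583 and 0.898 in F, 0.262 and 0.327 in D75, 1.13 and 1.29 in D20, 2.36 and 1.19 in DT, and 0.633 and 0.522 at R. The D20 and DT libraries lay above all others. It rose from D75 to D20 by 1.99 ± 0.64 (adjusted p = 0.038) and from watered to dry stages by 1.16 ± 0.44 (adjusted p = 0.0498). Both calls were lost under most alternatives and left-out libraries, with adjusted p values of up to 0.234 and 0.224. CL15522.Contig2, Unigene523 and Unigene525 passed no test.

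The members not yet described, CL6367.Contig1, CL9818.Contig3, Unigene32895, Unigene35275 and Unigene38888, passed no test. Unigene32895 matched the other unnumbered sesame sucrose synthase. It had no fragment in F and D75, 2 and 1 in D20, 5 and 4 in DT, and 3 and 7 at R.

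Summed over all 19 members, the scaled FPKM was 92.5 ± 37.9 in F, 134 ± 42.1 in D75, 1018 ± 317 in D20, 409.9 ± 149 at DT and 232 ± 70.6 at R. The share of CL9818.Contig1 in it ran from 62.2% to 95.5% of a library. The other 13 members with the KEGG number summed to 13.3 ± 0.283 in F, 6.97 ± 0.721 in D75, 43.8 ± 24.8 in D20, 25.5 ± 8.43 at DT and 23.7 ± 5.25 at R.

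The rest of the sucrose pathway was read from lists defined by name, beside the 14% of all tested unigenes higher and 17.8% lower in D20 and the 10.1% and 12.4% at DT. Sucrose-cleaving invertases rose together with CL9818.Contig1. All 6 tested cell wall invertases rose at D20 and 3 in DT, and the most abundant, CL6863.Contig1, went from 15.4 and 11.1 scaled FPKM in F to 261 and 239 at D20 (log2 4.23 ± 0.52, adjusted p = 0.000143). Of 19 neutral invertase unigenes from 6 clusters, 13 rose at D20 and 11 at DT and none fell, with a median log2 change of 1.92 at D20 against −0.33 for all tested unigenes. The most abundant, CL5161.Contig5, rose by 2.71 ± 0.43 at D20 (adjusted p = 0.000666). Both tested vacuolar acid invertases rose at D20 and 1 at DT, with CL2249.Contig1 going from 0.124 ± 0.0275 in F to 2.95 ± 0.705 at D20.

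Enzymes of sucrose synthesis gave mixed calls. Of 5 sucrose-phosphate synthase unigenes 2 rose and none fell in D20 (median log2 1.72), and 1 rose and 2 fell at DT (median −2.0). The most abundant, Unigene36994, had a level of 2.67 ± 0.905 in F, 1.82 ± 0.106 at D20 and 0.667 ± 0.396 at DT, where it fell by 2.00 ± 0.63 (adjusted p = 0.0396). It held only 29.0% of the level of the list. Of 13 sucrose-phosphatase unigenes from 4 clusters, none rose and 4 fell in D20, and the most abundant, CL9689.Contig4, had 17.3 ± 0.984 in F and 17.1 ± 1.53 at D20.

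The users of the products of sucrose synthase split. Unigene38243, the most abundant UDP-glucose pyrophosphorylase, went from 39.0 and 66.6 in F to 154 and 123 at D20 (1.38 ± 0.41, adjusted p = 0.0239), while of the 8 tested 2 rose and 1 fell. ADP-glucose pyrophosphorylase, the entry to starch synthesis, fell in 11 of 29 unigenes at D20 and rose in none (median log2 −1.49). Its small subunit Unigene8737 fell from 300.4 and 257 in F to 8.65 and 6.93 at D20 (−5.17 ± 0.47, adjusted p = 3.92e-05). Cellulose synthases fell in 22 of 44 unigenes at D20 and 22 at DT with none higher (median −3.13 at D20). Callose synthases were called higher in 2 and lower in 6 of 25 at D20 (median −0.84), shares near those of all tested unigenes, from which nothing is read.

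For fructose, the other product, fructokinases were higher in 7 and lower in 8 of 28 unigenes in D20, and the most abundant, Unigene37943, fell by 2.54 ± 0.44 (adjusted p = 0.0011). Of 9 hexokinase unigenes only hexokinase-1 (CL13340.Contig2) rose in D20, by 1.47 ± 0.37 (adjusted p = 0.0104). Low-oxygen genes were higher in 6 and lower in 6 of 20 unigenes, and the most abundant, alcohol dehydrogenase 1 (CL10179.Contig2), rose by 2.17 ± 0.53 (adjusted p = 0.00847).

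Sucrose transporters rose as well. SUC4 (CL6521.Contig3), a transporter of the vacuolar membrane in Arabidopsis, had 14.0 and 10.1 in F, 334 and 276 in D20, and 121.5 and 210.1 at DT, a rise of 4.65 ± 0.52 at D20 (adjusted p = 9.07e-05), and all 3 tested unigenes of the list, from 2 clusters, rose at D20 and DT. SWEET exporters, which let sugars out of cells, were called higher in 3 and lower in 6 of 21 unigenes at D20. Their median log2 change there was −1.61, against −0.33 for all tested unigenes. Between dry and watered stages 3 were higher and 12 lower, against 18% and 23.1% of all tested unigenes.

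**Figure D4:**
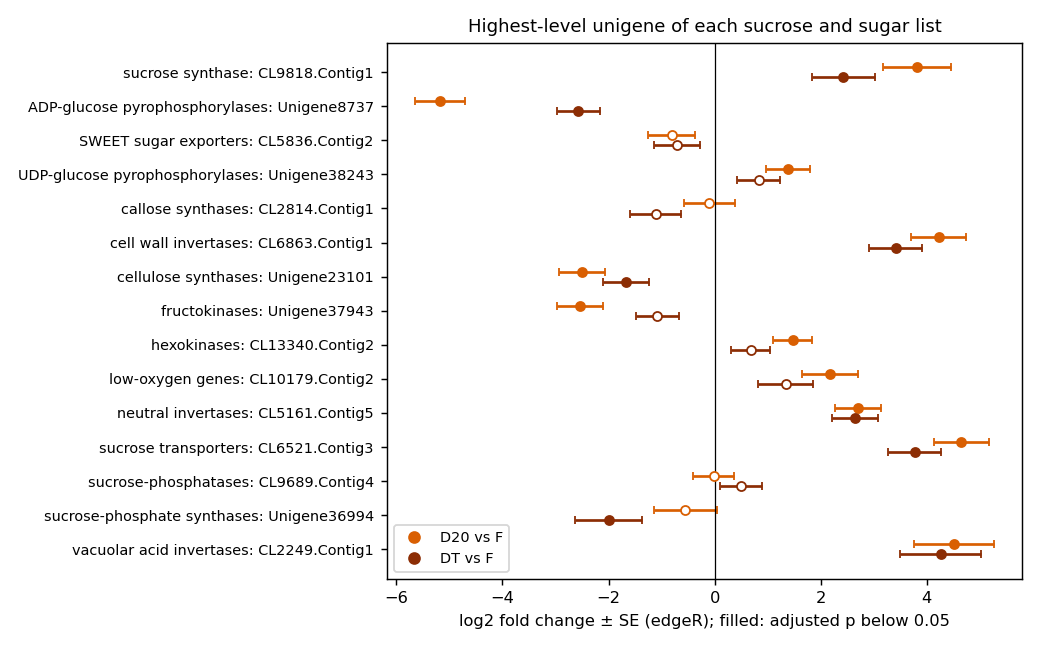
Log2 fold changes ± SE against F at D20 and DT for CL9818.Contig1 and the most abundant tested unigene of each of 14 lists of the sucrose and sugar pathway. Filled points have an adjusted p below 0.05. The sucrose transporter (4.65 at D20), the acid and cell wall invertases and CL9818.Contig1 lie on the right, and ADP-glucose pyrophosphorylase (−5.17 at D20) lies farthest to the left.

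The unigenes with the course most like that of CL9818.Contig1 were found by Pearson's r over log2(scaled FPKM + 1) of the 10 libraries, among 6442 unigenes with a mean of at least 10 and a named function. The closest were purple acid phosphatase 18 (Unigene43062, r = 0.991), late embryogenesis abundant protein 76 (CL18311.Contig3, 0.989), late embryogenesis abundant protein Dc3 (Unigene18392, 0.986), the E3 ubiquitin ligase At3g02290 (CL4694.Contig3, 0.986) and tobamovirus multiplication protein 2A (Unigene28458, 0.986). The 10 points share library and depth. An r of at least 0.95 was reached by 164 of the 6442 candidates, so a similar course was not particular to those listed. CL18311.Contig3 had 110.5 and 36.5 scaled FPKM in F, 105.5 and 260.0 in D75, 1727.6 and 1302.9 in D20, 401.9 and 700.3 in DT, and 149.5 and 243.7 at R, with the same order of D20 and DT above the other stages.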

How the data were processed

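Reads were cleaned by the authors (SeqPrep, Sickle), assembled with Trinity and quantified with RSEM, and they deposited whole fragment counts and FPKM for each library. The versions and the aligner are not given in the sources used here. The deposited FPKM equal counts over unigene length and the library total in the column name, to a rounding of 5e-05. The annotation columns hold best hits and, per the file headers, an alignment score. No genome was used, and 0 sample columns were unused.

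The FPKM filter (1 or more in 2 or more libraries) left 85267 unigenes, which were tested with edgeR 4.0.16 (R 4.3.3; TMM, glmQLFit, glmQLFTest), all 10 libraries in a single fit with a coefficient for each stage (5 residual degrees of freedom, 7.4 prior in the median). SE was taken as log2 fold change divided by the square root of the F statistic. Depth was 4522835 to 12734565 fragments, and a floor of 3 fragments stands for a count of 0, covering counting error only. Members with a mean scaled FPKM of at least 5 or a call in any of 8 comparisons are given by library, and of each pathway list the most abundant tested unigene. The fructokinase list leaves out phosphofructokinases, which the planned wording had matched. The members and lists were chosen with earlier results of these data known. Alternatives were median-of-ratios scaling, DESeq2 1.42.0, limma 3.58.1, other filters, a replicate block, only the libraries compared, stricter thresholds, cluster sums and each library left out. Figures were made with matplotlib 3.10.9.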

Additional observations from a re-analysis of the deposited data

How the results depend on the processing

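For the 20 calls of single members, 151 of 177 values under other settings kept the call and 26 lost it, and with each library left out 148 of 200 kept it and 52 lost it, with 0 reversals of sign. The count of members called at D75 against F was 0 and became 1 with DESeq2, 2 with limma on log2(FPKM + 1), 1 with limma on log2(FPKM + 0.1) and 1 with cluster sums. At D20 against F, 3 became 1 under the study's thresholds (an adjusted p of at most 0.001 with a fold of 2 or more). At DT against F, 2 became 4 with limma on log2(FPKM + 1), 4 with only the libraries compared and 0 under the study's thresholds. For D20 against D75, 8 became 5 with DESeq2, 2 with only the libraries compared and 0 under the study's thresholds. For R against DT, 1 became 0 with limma on log2(FPKM + 1), 2 with limma on log2(FPKM + 0.1), 2 with cluster sums and 0 under the study's thresholds. Dry against watered went from 6 to 1 under the study's thresholds. R against F and DT against D20 had 0 calls of members or clusters in every setting run, and 11 of the 19 members passed filterByExpr. Stricter thresholds can only lower a count, and the cause of the other changes was not tested.

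With each library left out the member counts ranged from 0 to 3 (D75 against F), 1 to 5 (D20 against F), 0 to 5 (DT against F), 3 to 8 (D20 against D75), 0 to 2 (R against DT) and 2 to 9 (dry against watered), and the cluster counts from 0 to 2, 2 to 5, 1 to 6, 3 to 7, 0 to 3 and 3 to 8. The lowest member counts came without F replicate 2 (D20 against F), F replicate 2 or DT replicate 2 (DT against F), D75 replicate 1 or D20 replicate 1 (D20 against D75), DT replicate 2 or R replicate 1 (R against DT) and R replicate 2 (dry against watered). The lowest cluster counts came without F replicate 2 (D75, D20 and dry stages), F replicate 2 or DT replicate 2 (DT against F), D20 replicate 1 (D20 against D75 and dry stages) and any single DT or R library (R against DT). Same-numbered replicates did not deviate together (r −0.19 to 0.085 between stages). No pairing by number was thus seen, but it is not excluded, since the plants of each library are not stated. With the replicate block the member counts were 0 at D75, 3 at D20, 3 at DT and 0 at R against F, 6 for D20 against D75, 0 for DT against D20, 1 for R against DT and 5 for dry against watered, and 17 of 20 calls held. At the lowest counts, near 3 fragments in a library of 4522835, a difference could not be detected.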

Other observations

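A further unigene carries the KEGG number of sucrose synthase without the name. Unigene8471 (971 nt) has a retrotransposon protein as its best Nr hit and an RNA-directed DNA polymerase as its Swiss-Prot hit, so it was not counted as a sucrose synthase. Its fragments numbered 0 and 1 in F, 0 and 0 in D75, 17 and 25 in D20, 2 and 14 in DT, and 0 and 0 at R, which places both D20 libraries above all others. It was chosen after its values were seen, and no test is given.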
